A study of Homo sapiens with 15 samples.

Results

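The genes described here are the 104 that the authors' deposited tables list for both siRNAs against SRC, siSRC2 and siSRC4, in senescent human fibroblasts. They are every gene whose identifier is in both tables, so they were chosen through the authors' comparisons of each siRNA with the control NC. They make up 104 of the 4872 genes in the series' 4 tables (2.13%). The table of siSRC2 holds 331 genes and that of siSRC4 1280, so the shared genes are 31.4% of the siSRC2 table and 8.12% of the siSRC4 table. For these genes the expression with siSRC2 was set directly beside that with siSRC4, with the control NC as the level both are read against. Of the 104, 49 had a 95% interval of the siRNA difference, on the log2(signal + 1) scale, wholly within 1.5-fold (48.5% of the 101 tested). Another 12 lay on the same side of NC and were called different (14.5% of the 83 tested on the same side). A further 18 lay on opposite sides of NC, 22 could not be placed, and 3 had too little signal to test. The fold between the siRNAs on that scale was at most 1.32 for the 22, so genes outside the 49 are not all over 1.5-fold apart.

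SRC encodes a non-receptor tyrosine kinase that couples integrins and growth factor receptors to the cytoskeleton, to adhesion and to gene expression. A small interfering RNA (siRNA) guides the cleavage of transcripts that match it, and it can also lower or change other transcripts through partial matches or through the transfection itself. A pair of siRNAs against one transcript share the target transcript and differ in sequence. The sequences of siSRC2 and siSRC4 were not used here.

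The cells were WI-38, a line of human fetal lung fibroblasts that divides a limited number of times in culture. The siSRC2 group, the siSRC4 group and the NC group each had 3 RNA sequencing libraries at PD45, read as 45 population doublings, a stage the labels call senescent. All 3 groups received the transfection reagent lipo3000 and DMSO, together with an siRNA against SRC in the siSRC2 and siSRC4 groups, and with NC, read as a negative control siRNA, in the control group. The labels give both SRC groups the same treatment, and the siRNA was read from the sample titles. Whether replicate libraries stem from separate cultures is not given in the labels, so p-values here rest on the spread of these libraries alone, which may be technical.

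Each value is the authors' normalized expression signal, whose unit (TPM or FPKM) the file headers do not state. Read depth is therefore unknown and no counting interval is given. The signals of the NC libraries were identical in both tables, so the siSRC2 and siSRC4 signals were read on a common scale. The authors' tables hold genes with an adjusted p under 0.05 and a change of at least 1.5-fold from NC. From the deposited p-values the authors tested 12549 genes for siSRC2, of which 2.64% are listed (1.38% higher, 1.26% lower), and 14598 for siSRC4, of which 8.77% are listed (3.91% higher, 4.86% lower). Because those comparisons chose the genes, changes from NC are given below as descriptions with no test. Of 11 fibroblast markers, COL6A3 and COL3A1 were listed higher for siSRC2, and the other 9 were listed for neither siRNA. Of 5 epithelial markers KRT19 alone was listed, lower for siSRC2, and of 5 endothelial markers TEK alone, higher for siSRC2. Of 6 smooth muscle and pericyte markers RGS5 alone was listed, lower for siSRC4. No marker of any cell type was listed for both siRNAs, and no blood marker was listed for either. The levels of markers outside the tables were not used here, so the labelled cell type could not be checked against its markers.

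SRC itself reached nearly the same level with both siRNAs. Its signal was 11.6, 10.6 and 11.61 with siSRC2, 9.51, 11.11 and 11.77 with siSRC4, and 18.95, 20.47 and 19.88 in NC. All 6 siRNA libraries lay below all NC libraries, and the siSRC2 and siSRC4 libraries overlapped. The mean was 57.0% of NC with siSRC2 and 54.6% of NC with siSRC4. The difference, siSRC2 minus siSRC4, was 0.06 on the log2(signal + 1) scale (SE 0.10, 95% interval -0.17 to 0.29). In bulk RNA, fewer cells with a transcript and less of it per cell cannot be told apart. An exact two-sided permutation test of the 3 against 3 libraries gave p = 0.7, where the smallest possible is 0.1.

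Both siRNAs moved most of the shared genes to the same side of NC. By the authors' fold changes, 54 genes were higher with both siRNAs, 32 were lower with both, 11 were higher with siSRC2 and lower with siSRC4, and 7 were lower with siSRC2 and higher with siSRC4. The siRNA libraries of both groups lay apart from the NC libraries for 44 of the 54 genes, 27 of the 32, 8 of the 11 and 6 of the 7. Being listed for a change from NC favours such separation, so these counts lend the changes no support. The median level of the genes higher with both was 168% of NC with siSRC2 and 176% of NC with siSRC4, and that of the genes lower with both was 60.5% with siSRC2 and 56.4% with siSRC4. The comparisons with NC share the NC libraries, so the number of genes on one side is a description and not a measure of likeness.

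**Figure D1:**
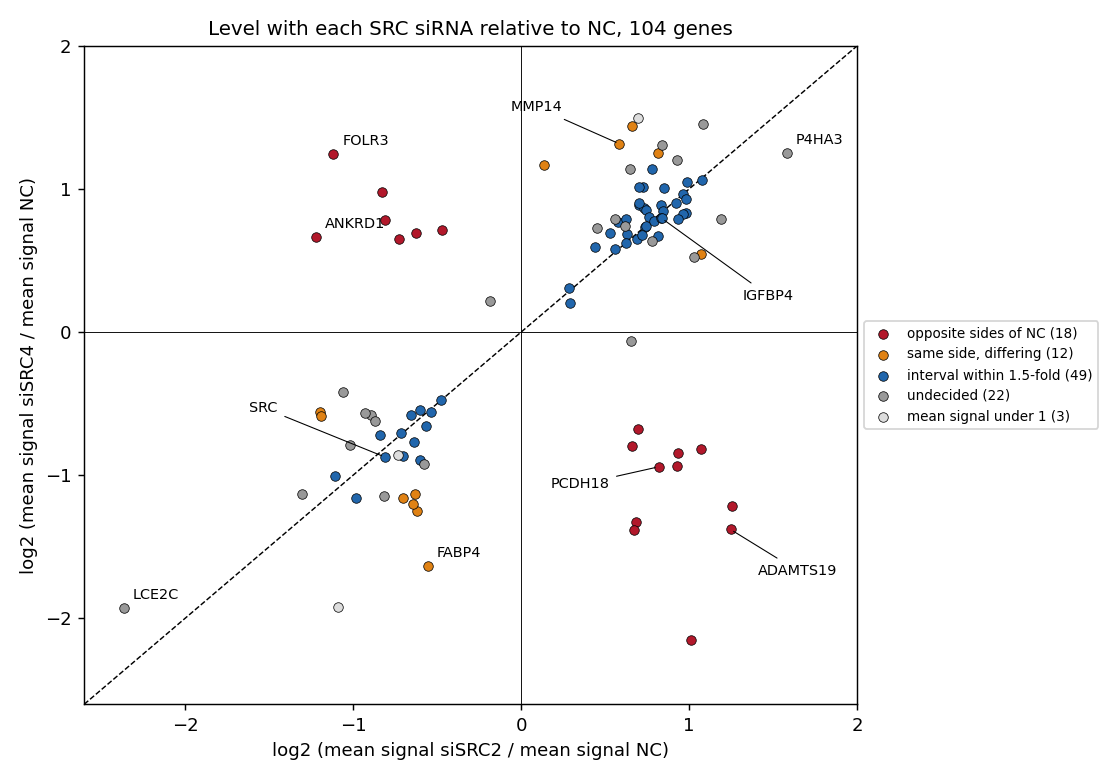
Each point is 1 of the 104 genes, with log2 of its mean signal with siSRC2 over the NC mean on the horizontal axis and the same for siSRC4 on the vertical axis. The dashed line marks equal levels, the 18 red genes lie at the upper left and lower right, and 49 blue genes have a 95% interval of the siRNA difference within 1.5-fold. A pair of undecided genes, ELOVL6 and ARMCX4, lie there too by their signals although the authors' fold changes put them on 1 side.

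The direct comparison used limma on log2(signal + 1) over the 9 libraries, for the 101 genes whose mean signal reached 1. P-values were adjusted by Benjamini-Hochberg over all 101, since values of both siRNA groups exist here for the shared genes only. Differences between the siRNAs are given on this log2 scale, as siSRC2 minus siSRC4. At an adjusted p under 0.05, 30 of 101 genes were called (29.7%), 17 higher with siSRC2 (16.8%) and 13 lower with siSRC2 (12.9%). These 30 include all 18 genes on opposite sides of NC, which had to differ: at 1.5-fold from NC in each direction, the authors' fold changes are at least 2.25-fold apart. The test therefore bears on the 83 tested genes on the same side of NC, of which 12 were called (14.5%), 6 higher and 6 lower with siSRC2. Since the 18 forced differences stand in the adjustment and ease it for the others, p-values were also adjusted over the 83 alone, an alternative chosen after seeing the data. Then 9 were called, and ARL10 (limma adjusted p = 0.0961), KRTAP1-5 (0.0752) and PSG1 (0.0572) were not. At an unadjusted p under 0.05 there were 15. Being listed on the same side of NC with both siRNAs also holds levels near each other, so small differences among these genes are no free measure of likeness.

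The same-side genes differed little between the siRNAs. Their median absolute difference was 0.14 on the log2(signal + 1) scale, or 1.10-fold, and the widest was 2.07-fold, for FABP4. The genes on opposite sides ran from 2.02-fold to 5.04-fold on that scale, with a median of 2.99-fold. The siSRC2 and siSRC4 libraries did not overlap for 35 of the 104 genes (33.7%) and for 18 of the 86 on the same side (20.9%). Of the 83 tested genes on the same side, 47 lay farther from NC with siSRC4, and so did 9 of the 12 that were called.

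**Figure D2:**
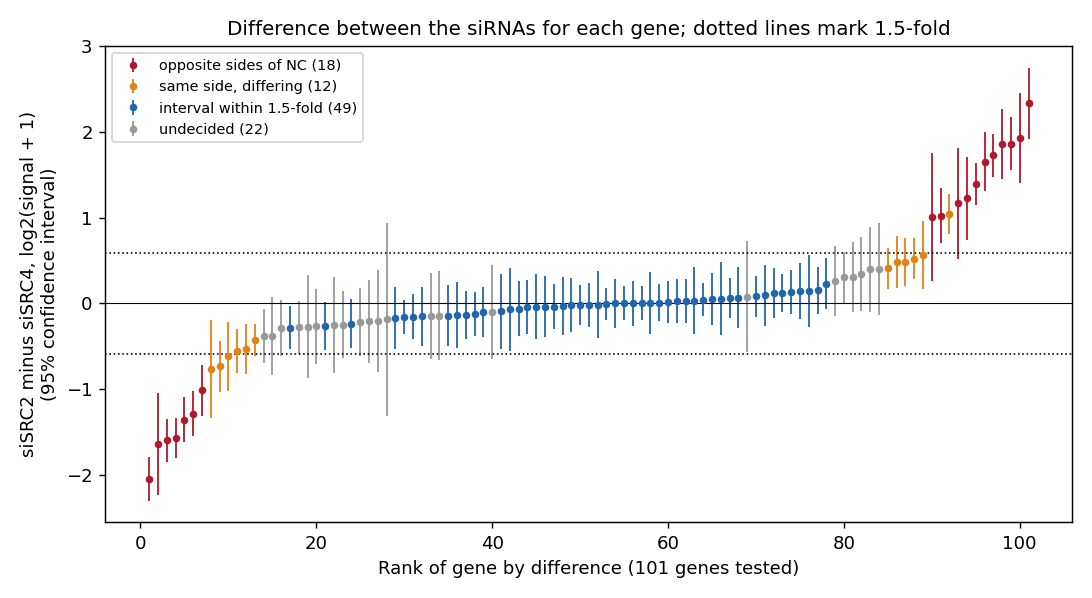
The 101 tested genes are ranked by the difference siSRC2 minus siSRC4 in log2(signal + 1), with bars for the 95% confidence interval and dotted lines at 1.5-fold in either direction. The red genes on opposite sides of NC fill nearly all of both ends, FABP4 is the orange point among them at 1.05, and the 49 blue intervals stay between the dotted lines.

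The genes on opposite sides of NC include enzymes, receptors and adhesion proteins, and all 18 are named. The 11 genes higher with siSRC2 and lower with siSRC4 were ADAMTS19, ENSG00000285901, SSX2IP, TRPA1, PCDH18, HSD17B2, LRRN3, GRIA4, CHL1, PDGFD and CRISPLD1. The 7 genes lower with siSRC2 and higher with siSRC4 were FOLR3, ANKRD1, SGPL1, KRTAP2-3, TRBV12-4, DDR1 and ADAMTSL1. In 14 of the 18 every siRNA library lay beyond every NC library, in opposite directions, and in 17 the siSRC2 libraries did not overlap the siSRC4 libraries. Being listed on opposite sides of NC favours both separations.

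ADAMTS19, a secreted metalloproteinase, had a signal of 23.09, 17.24 and 24.95 with siSRC2, 2.56, 4.15 and 3.87 with siSRC4, and 8.1, 8.41 and 11 in NC. All siSRC2 libraries were high and all siSRC4 libraries low, with NC between them, and the siSRC2 mean was 6.17 times the siSRC4 mean. PCDH18, a protocadherin of cell adhesion, had 86.34, 79.11 and 84.06 with siSRC2, 28.74, 22.13 and 22.78 with siSRC4, and 50.79, 43.66 and 46.93 in NC. No library of one group reached those of another, and the mean stood at 176% of NC with siSRC2 and 52.1% with siSRC4. HSD17B2, an enzyme that inactivates sex steroids, had 26.38, 24.19 and 28.49 with siSRC2, 7.95, 7.38 and 7.7 with siSRC4, and 12.04, 11.38 and 17.92 in NC. LRRN3, a leucine-rich repeat membrane protein, had 33.56, 32.59 and 30.8 with siSRC2, 13.7, 11.16 and 10.39 with siSRC4, and 19.68, 21.84 and 19.78 in NC. Both genes had 3 separate groups of libraries in the same order, siSRC2 above NC above siSRC4.

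SSX2IP, a centrosome and junction protein, averaged 19.7 ± 1.32 with siSRC2, 4.74 ± 0.997 with siSRC4 and 12.3 ± 0.724 in NC (SD, n = 3 each). TRPA1, a cation channel opened by irritants, averaged 28.5 ± 6.41 with siSRC2, 7.07 ± 1.24 with siSRC4 and 17.7 ± 3.10 in NC. PDGFD, a ligand of the PDGF receptor beta, had a low signal of 2.88, 1.96 and 2.11 with siSRC2, 0.61, 0.45 and 0.82 with siSRC4, and 1.02, 1.2 and 1.09 in NC. All 3 had groups of libraries that did not overlap. GRIA4, a glutamate receptor subunit, averaged 2.40 with siSRC2, 0.433 with siSRC4 and 1.01 in NC, and its siSRC2 libraries overlapped NC. CHL1, a cell adhesion protein related to L1, averaged 8.59 with siSRC2, 3.31 with siSRC4 and 5.30 in NC, and both siRNA groups overlapped NC. CRISPLD1, a secreted cysteine-rich protein, was the 1 gene of the 18 in which the siSRC2 and siSRC4 libraries overlapped, with 1.63, 3.73 and 1.39 with siSRC2, 0.22, 0.24 and 1.4 with siSRC4, and 0.92, 1.92 and 0.71 in NC. Its difference was called in 7 of 15 alternatives. The gene without a symbol, ENSG00000285901, averaged 4.78 with siSRC2, 0.533 with siSRC4 and 2.37 in NC.

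FOLR3, a secreted folate-binding protein, had a signal of 3.32, 2.66 and 3.16 with siSRC2, 15.09, 14.69 and 17.3 with siSRC4, and 6.41, 6.64 and 6.77 in NC. The siSRC2 libraries were the lowest and the siSRC4 libraries the highest, a siSRC4 mean 5.15 times the siSRC2 mean. SGPL1, the lyase that breaks down sphingosine 1-phosphate, had 3.89, 4.06 and 4.6 with siSRC2, 14.35, 16.02 and 13.65 with siSRC4, and 7.94, 7.36 and 6.98 in NC. DDR1, a receptor tyrosine kinase for collagen, had 18.41, 20.26 and 24.75 with siSRC2, 51.79, 57.24 and 49.06 with siSRC4, and 35.26, 31.69 and 30.95 in NC. In both, NC lay between the siRNAs with no overlap. ANKRD1, an ankyrin repeat protein and a known target of the YAP and TEAD transcription regulators, had 4.51, 2.92 and 1.95 with siSRC2, 13.33, 11.58 and 9.67 with siSRC4, and 10.25, 6.67 and 4.93 in NC. Its siSRC2 libraries lay below all others, and its siSRC4 and NC libraries overlapped.

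KRTAP2-3, a keratin-associated protein gene, averaged 45.8 ± 1.45 with siSRC2, 138 ± 13.5 with siSRC4 and 80.1 ± 8.88 in NC (SD, n = 3 each). KRTAP1-5, which lies on chromosome 17 as well with 5 genes in between, was lower than NC with both siRNAs. Both belong to a family of similar genes, so reads may be shared between relatives and their levels are uncertain. ADAMTSL1, an ADAMTS-like matrix protein without a protease domain, averaged 4.36 ± 0.232 with siSRC2, 9.90 ± 1.63 with siSRC4 and 6.05 ± 0.681 in NC. TRBV12-4 is a T-cell receptor gene segment with near-identical relatives, and its signal of 31.9 with siSRC2, 82.7 with siSRC4 and 52.8 in NC is uncertain for that reason.

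**Figure D3:**
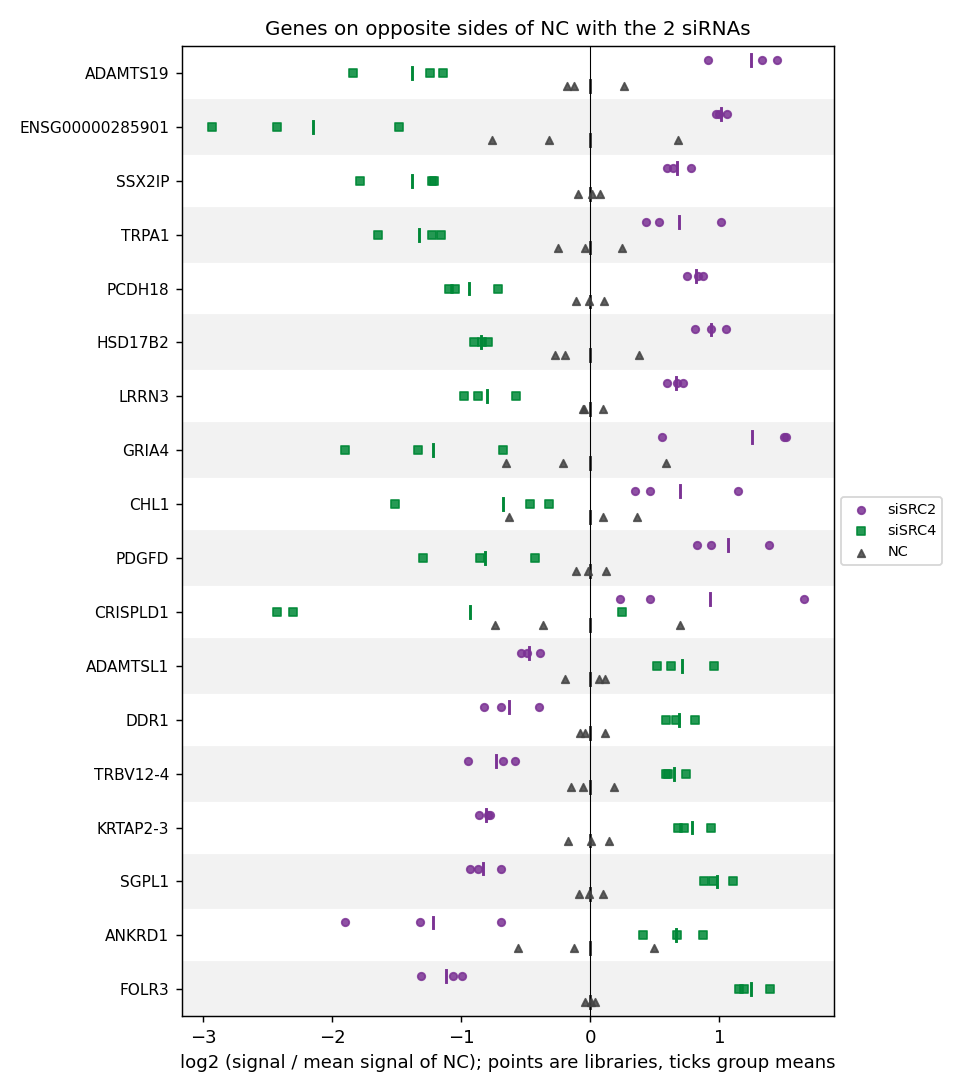
Each row is 1 of the 18 genes listed on opposite sides of NC, with the signal of each library as log2 over the NC mean on the horizontal axis and a tick at each group mean. The 11 upper genes have siSRC2 to the right of NC and siSRC4 to the left, the 7 lower genes the reverse, and the siSRC2 and siSRC4 libraries overlap for CRISPLD1.

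Promoters are shown for FOLR3, ANKRD1, PCDH18 and ADAMTS19, a pair from each direction of the opposite-side genes. Each is the 250 bases before the RefSeq gene start in GRCh38.p14, written 5′ to 3′ on the strand of the gene. They lie at chr11:72135475-72135724 on the plus strand for FOLR3, chr10:90921088-90921337 on the minus strand for ANKRD1, chr4:137532495-137532744 on the minus strand for PCDH18 and chr5:129460048-129460297 on the plus strand for ADAMTS19. Capitals mark every match, on either strand, to TATAAA, the TATA box, to GGGCGG, the GC box, to CATTCC, the motif of TEAD factors, to TGANTCA, the motif of AP-1 factors, or to CCAAT, the motif of NF-Y.
ADAMTS19: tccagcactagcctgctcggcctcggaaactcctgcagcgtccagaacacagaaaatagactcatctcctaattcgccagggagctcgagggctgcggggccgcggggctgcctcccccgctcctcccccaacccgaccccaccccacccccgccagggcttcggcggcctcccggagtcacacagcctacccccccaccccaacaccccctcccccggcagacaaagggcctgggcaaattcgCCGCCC
PCDH18: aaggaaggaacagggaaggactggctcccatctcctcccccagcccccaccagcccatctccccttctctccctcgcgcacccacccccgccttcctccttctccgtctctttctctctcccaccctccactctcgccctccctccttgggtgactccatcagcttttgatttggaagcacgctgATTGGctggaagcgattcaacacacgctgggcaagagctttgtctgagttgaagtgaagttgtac
FOLR3: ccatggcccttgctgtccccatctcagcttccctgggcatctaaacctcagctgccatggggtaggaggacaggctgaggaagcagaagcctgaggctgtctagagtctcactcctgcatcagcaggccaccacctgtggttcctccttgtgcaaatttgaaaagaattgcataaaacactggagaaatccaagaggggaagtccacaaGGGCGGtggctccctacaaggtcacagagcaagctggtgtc
ANKRD1: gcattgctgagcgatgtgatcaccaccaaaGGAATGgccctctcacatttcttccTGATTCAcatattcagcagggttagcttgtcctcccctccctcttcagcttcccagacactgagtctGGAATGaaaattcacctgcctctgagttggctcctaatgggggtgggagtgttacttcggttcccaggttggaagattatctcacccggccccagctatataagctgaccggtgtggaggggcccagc
ANKRD1 holds CATTCC at a pair of places and TGANTCA at another, FOLR3 and ADAMTS19 hold GGGCGG, and PCDH18 holds CCAAT. RefSeq promoters were found by symbol for 73 of the 104 genes. Over all 27305 promoters of this length GGGCGG is found in 42.3%, CCAAT in 33.0%, CATTCC in 11.9%, TATAAA in 11.1% and TGANTCA in 6.60%. Over the 73 matched promoters GGGCGG was found in 56.2%, CCAAT in 31.5%, CATTCC in 13.7%, TATAAA in 19.2% and TGANTCA in 6.85%. By side, counts are given for GGGCGG alone. It was found in 3 of the 7 matched promoters of genes higher with siSRC2 and lower with siSRC4, and in 2 of 6 for the reverse. For genes higher with both it was found in 28 of 38 (73.7%), and for genes lower with both in 8 of 22 (36.4%). These shares were not tested, and the 27305 promoters are not limited to genes expressed in these cells. A match describes these letters and does not show a site in use.

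Among the 12 genes on the same side of NC whose levels differed, the membrane-type metalloproteinases MMP14 and MMP24 rose farther with siSRC4, and FABP4 fell farther with siSRC4. MMP14, a cell-surface collagenase that also activates other metalloproteinases, had a signal of 558.44, 509.43 and 421.53 with siSRC2, 859.59, 882.43 and 729.09 with siSRC4, and 363.34, 342.84 and 286.41 in NC. The groups did not overlap, and the mean stood at 150% of NC with siSRC2 and 249% with siSRC4. The difference was -0.73 on the log2(signal + 1) scale (SE 0.13, limma adjusted p = 0.00157). MMP24, a second membrane-type metalloproteinase, had a low signal of 1.4, 1.95 and 1.59 with siSRC2, 2.52, 3.23 and 2.72 with siSRC4, and 0.97, 1.12 and 1.03 in NC. Its groups did not overlap either (difference -0.53, SE 0.13, limma adjusted p = 0.00963). EXTL3, a glycosyltransferase of heparan sulfate synthesis, averaged 31.3 ± 1.99 with siSRC2, 42.3 ± 1.04 with siSRC4 and 17.8 ± 0.319 in NC (difference -0.42, limma adjusted p = 0.00256). ARL10, a small GTPase gene with a mean of 2.21 with siSRC2, 4.50 with siSRC4 and 2.01 in NC, was the called gene nearest the threshold (limma adjusted p = 0.0468), and its siSRC2 libraries overlapped NC. Its log2 fold change in the authors' deposited table was 0.66 for siSRC2 and 0.74 for siSRC4, and it was called in 6 of 15 alternatives, and not at a pseudocount of 0.1, with the siRNA libraries alone or with a replicate block.

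FABP4, a fatty acid-binding protein known from fat cells and macrophages, had 64.15, 67.87 and 52.98 with siSRC2, 31.64, 28.11 and 27.86 with siSRC4, and 90.47, 92.47 and 88.87 in NC. It stood at 68.1% of NC with siSRC2 and 32.2% with siSRC4, and the difference of 1.05 (SE 0.10, limma adjusted p = 1.33e-05) was the widest on the same side. IL7R, the interleukin-7 receptor, had 24.29, 25.21 and 23.35 with siSRC2, 20.53, 15.56 and 15.47 with siSRC4, and 41.32, 37.74 and 33.6 in NC. All siSRC4 libraries lay below all siSRC2 libraries, which lay below NC (difference 0.49, SE 0.12, limma adjusted p = 0.0124). KRTAP1-5 stood at 63.9% of NC with siSRC2 and 43.4% with siSRC4, with siRNA libraries that overlapped (limma adjusted p = 0.036). A pair of long non-coding RNA genes, SEC61G-DT and LINC00513, were also higher with siSRC2 than with siSRC4. SEC61G-DT had 11.73, 12.2 and 12.14 with siSRC2, 9.01, 8.55 and 8.81 with siSRC4, and 17.2, 22.11 and 19.43 in NC (limma adjusted p = 0.0129), and LINC00513 averaged 4.27 with siSRC2, 2.76 with siSRC4 and 6.55 in NC (limma adjusted p = 0.0184). SEC61G-DT is transcribed next to SEC61G on the other strand, and whether the counting used strand is not given in the sources used here.

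For 3 of the 12 genes siSRC2 gave the level farther from NC. H2BC5, a histone H2B gene, had 55.94, 58.1 and 49.36 with siSRC2, 43.08, 34.32 and 35.95 with siSRC4, and 24.94, 25.39 and 27.31 in NC. Its groups did not overlap, and the difference was 0.52 (SE 0.11, limma adjusted p = 0.00343). CEND1, a protein of cell-cycle exit known from neurons, had 10.69, 9.33 and 9.29 with siSRC2, 14.74, 13.7 and 16.15 with siSRC4, and 24.77, 22.63 and 19.64 in NC. It too had separate groups (difference -0.56, SE 0.12, limma adjusted p = 0.00343). PSG1, a pregnancy-specific glycoprotein, had 21.87, 15.98 and 15 with siSRC2, 31.67, 26.2 and 24.22 with siSRC4, and 43.41, 46.51 and 31.02 in NC, with siSRC4 libraries that overlapped NC (limma adjusted p = 0.0258). PSG1 and H2BC5 have near-identical relatives and their levels are uncertain. EXTL3, ARL10, SEC61G-DT and LINC00513 fall outside the naming rule and were named after their values were seen, because all 12 are given.

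The count of 12 rested in part on single libraries. It was 7 without siSRC2 replicate 2 and 6 without siSRC4 replicate 2, while all 12 kept their direction in those of 16 other settings that tested them. MMP14, MMP24, EXTL3, FABP4, CEND1 and H2BC5 were called in each of those settings that tested them, and SPRN, a shadow of prion protein gene named here as the nearest on the other side, missed the threshold with a limma adjusted p of 0.0761.

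**Figure D4:**
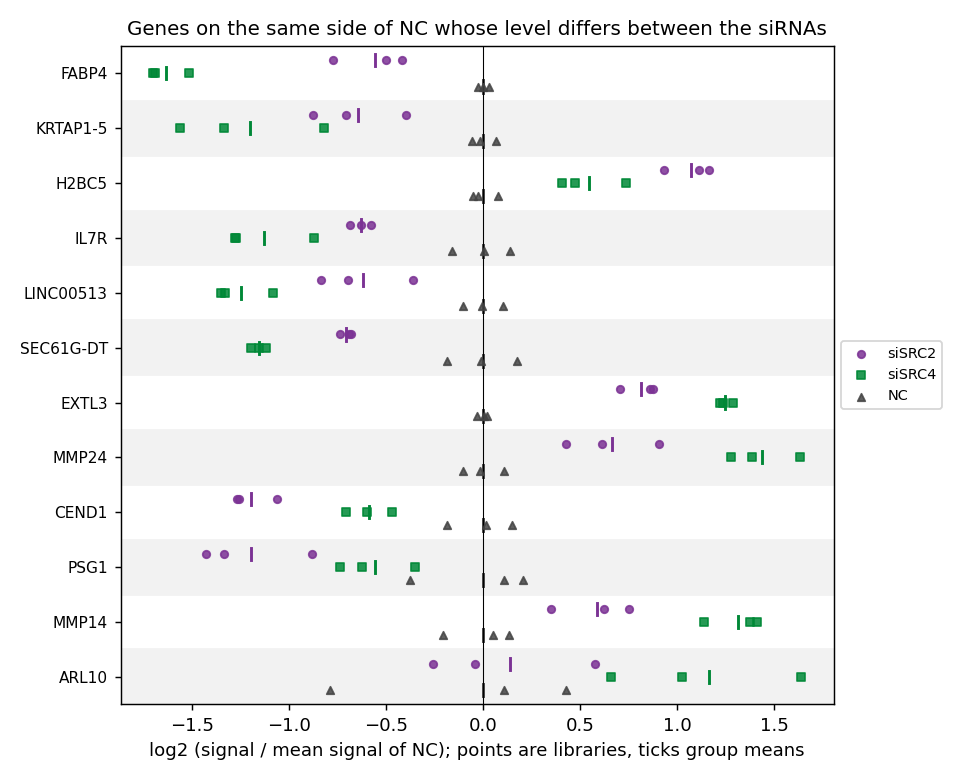
Each row is 1 of the 12 genes on the same side of NC that differed between the siRNAs, with each library as log2 of its signal over the NC mean on the horizontal axis and a tick at each group mean. In 11 rows the siSRC2 and siSRC4 libraries do not overlap, the exception being KRTAP1-5, and siSRC4 is the farther from NC in 9 rows.

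For 49 of the 101 tested genes (48.5%) the 95% interval of the siRNA difference lay wholly within 1.5-fold, 36 of them higher than NC with both siRNAs and 13 lower. IGFBP4, a secreted binding protein of insulin-like growth factors, had 1819.64, 1878.9 and 1726.73 with siSRC2, 1671.56, 1842.78 and 1750.36 with siSRC4, and 983.88, 1011.92 and 1039.15 in NC. The siRNA libraries overlapped each other and lay above all NC libraries (difference 0.04, 95% interval -0.15 to 0.24). COL4A1, a basement membrane collagen, had 204.69, 200.79 and 169.57 with siSRC2, 184.04, 198.89 and 190.76 with siSRC4, and 134.99, 112.82 and 96.4 in NC. COL5A1, a fibrillar collagen, had 142.58, 158.66 and 159.43 with siSRC2, 134.69, 171.35 and 162.19 with siSRC4, and 98.21, 110.1 and 104.77 in NC. For both collagens the siRNA libraries overlapped each other and lay above NC. The interval of the difference was -0.28 to 0.28 for COL4A1 and -0.25 to 0.22 for COL5A1. CXCL12, a chemokine made by stromal cells, had 6.61, 6.33 and 5.05 with siSRC2, 7.39, 5.89 and 4.45 with siSRC4, and 3.58, 3.23 and 2.67 in NC (interval -0.35 to 0.42).

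BICD2, an adaptor of the dynein motor, had 29.15, 30.25 and 29.75 with siSRC2, 30.22, 29.06 and 30.26 with siSRC4, and 17.41, 15.56 and 16.76 in NC. It stood at 179% of NC with siSRC2 and 180% with siSRC4, and the interval of the difference, -0.19 to 0.18, was among the narrowest. GANAB, the catalytic subunit of glucosidase II in glycoprotein folding, averaged 250 ± 3.82 with siSRC2, 278 ± 15.1 with siSRC4 and 138 ± 12.8 in NC. Its siRNA libraries did not overlap, yet the interval of the difference, -0.35 to 0.04, stayed within 1.5-fold. KLHDC3, a substrate receptor of a ubiquitin ligase, was the gene of the 49 with the smallest adjusted p (0.0915 by limma), with 46.1 ± 3.29 with siSRC2, 56.6 ± 5.39 with siSRC4 and 27.9 ± 3.41 in NC. ZNF664, a zinc finger protein, stood at 178% of NC with siSRC2 and 185% with siSRC4.

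FABP3, the fatty acid-binding protein of heart and muscle, had 12.55, 10.81 and 8.15 with siSRC2, 13.78, 9.48 and 10.48 with siSRC4, and 25.74, 24.78 and 17.28 in NC. The siRNA libraries overlapped and all lay below NC (difference -0.09, 95% interval -0.53 to 0.35), and the interval of its relative FABP4 was 0.81 to 1.28. HLA-DMA, which loads peptides onto MHC class II, averaged 8.32 with siSRC2, 7.55 with siSRC4 and 4.26 in NC. MT1L, a metallothionein pseudogene, averaged 113 with siSRC2, 102 with siSRC4 and 59.1 in NC, and its level is uncertain because of near-identical metallothionein genes. FGFR4, a fibroblast growth factor receptor, averaged 6.22 with siSRC2, 6.98 with siSRC4 and 4.31 in NC, LRRC3 2.25, 2.89 and 1.31 in the same order, and the non-coding LINC02035 3.24, 4.02 and 1.99. In these 5 genes, HLA-DMA to LINC02035, every siRNA library lay above every NC library. A gene without a symbol, ENSG00000281181, averaged 226 with siSRC2, 218 with siSRC4 and 114 in NC. Over all 49 the fold between the siRNAs, taken on the log2(signal + 1) scale, was at most 1.22 with a median of 1.04. That scale narrows the fold of low genes. By mean signals, siSRC4 stood at 1.28 times siSRC2 for LRRC3 and 1.24 times for LINC02035. The siSRC2 and siSRC4 libraries were apart in 4 of the 49.

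**Figure D5:**
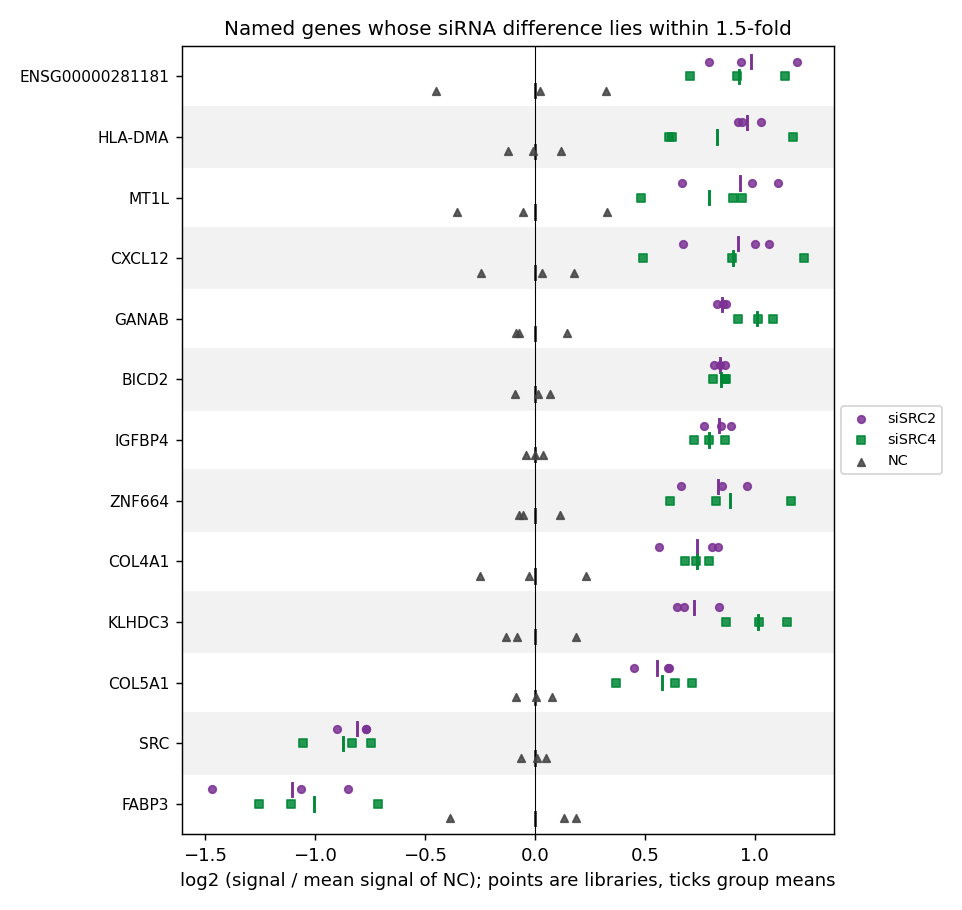
Rows are 13 of the genes named among the 49 with a 95% interval of the siRNA difference within 1.5-fold. Each library is shown as log2 of its signal over the NC mean on the horizontal axis, with a tick at each group mean. The siSRC2 and siSRC4 points fall on the same side of NC and near each other, SRC and FABP3 below 0 and the other genes above.

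The remaining 22 tested genes were neither called nor had an interval wholly within 1.5-fold. Of them, 12 were higher than NC with both siRNAs and 10 lower. Their signal was lower. The highest of the siSRC2, siSRC4 and NC means had a median of 6.90 against 15.03 for the 49. The median SE of the 22 was 0.21 against 0.13 for the 49. ADAM19, a membrane metalloproteinase, had 40.65, 41.2 and 28.95 with siSRC2, 45.14, 47 and 42.11 with siSRC4, and 22.53, 18.62 and 17.08 in NC. Its siRNA libraries did not overlap, and the interval of the difference ran from -0.62 to 0.04 (limma adjusted p = 0.229). P4HA3, a subunit of collagen prolyl 4-hydroxylase, had the highest level relative to NC with siSRC2, at 5.93, 6.47 and 3.84 with siSRC2, 4.97, 4.56 and 3.39 with siSRC4, and 1.76, 1.65 and 2.01 in NC. LCE2C, a late cornified envelope gene with near-identical relatives and an uncertain level, had the lowest with siSRC2, at 19.4% of NC, and stood at 26.2% of NC with siSRC4. NR4A2, an orphan nuclear receptor induced early after stimulation, averaged 4.44 ± 0.610 with siSRC2, 3.36 ± 1.20 with siSRC4 and 1.95 ± 0.313 in NC. TP53INP1, a p53-induced protein of autophagy, averaged 7.14 ± 0.501 with siSRC2, 8.90 ± 1.0 with siSRC4 and 13.3 ± 2.19 in NC.

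Signals and the authors' fold changes were over 0.5 apart on the log2 scale for 6 of the 104 genes. For ELOVL6, a fatty acid elongase, the log2 fold change in the authors' deposited table was -0.91 for siSRC2 and -1.06 for siSRC4. Its signals were 3.4, 10.5 and 3.9 with siSRC2, 4.08, 3.16 and 16.28 with siSRC4, and 8.02, 6.2 and 6.02 in NC, with 1 high library in each siRNA group. For ARMCX4, an armadillo repeat gene, the authors' deposited table gave 0.89 with siSRC4, where the signal averaged 1.03 with siSRC4 and 1.07 in NC. GSG1, ADIRF and LDB3 completed the named genes of the 22. GSG1 stood at 52.6% of NC with siSRC2 and 67.7% with siSRC4, ADIRF at 54.8% with siSRC2 and 65.0% with siSRC4, and LDB3 at 49.3% with siSRC2 and 57.8% with siSRC4. LDB3 was low, with 1.1, 1.11 and 1.76 for siSRC2, 1.54, 1.3 and 1.81 for siSRC4, and 4.2, 2.17 and 1.68 in NC. Both its siRNA groups overlapped NC, as did the siSRC4 libraries of GSG1. The 3 genes under the signal minimum were ACVR2B, SYNPO2 and a gene without a symbol, named because they are so few, with group means of at most 1.17.

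Among gene lists chosen for this tissue and treatment, 16 lists with 531 genes, 13 of the shared genes fell in a list. Of 45 collagen and matrix genes, 9 were listed higher and 0 lower with siSRC2, 5 higher and 1 lower with siSRC4, and COL4A1 and COL5A1 with both. Of 38 genes of proteases and plasminogen activation, 7 were higher and 2 lower with siSRC2, 6 higher and 0 lower with siSRC4, and MMP14, MMP24 and ADAM19 higher with both. All 3 had a higher mean with siSRC4 than with siSRC2, though ADAM19 was undecided (limma adjusted p = 0.229). Of the 83 tested genes on the same side, 47 lay farther from NC with siSRC4. Of 50 genes of the SRC family with its regulators and substrates, SRC alone was listed with siSRC2, and SRC, CAV1 and ITGB3 with siSRC4. Of 42 secreted cytokine genes, 2 were higher and 0 lower with siSRC2, 4 higher and 3 lower with siSRC4, and CXCL12 and IGFBP4 higher with both. Of 30 NRF2 target genes 0 were listed with siSRC2, 1 was higher and 11 lower with siSRC4, so none had values with both. The share of all tested genes listed, given above, is 2.64% for siSRC2 and 8.77% for siSRC4, and a gene outside a table is not shown to be at the NC level.

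The other lists held few shared genes. ANKRD1 was the 1 listed gene of 22 SRF and YAP targets with either siRNA, and in opposite directions. Of 24 collagen processing genes 1 was listed with siSRC2 and 5 with siSRC4, with P4HA3 in both. Of 30 immediate-early genes 3 were listed with siSRC2 and 5 with siSRC4, with NR4A2 in both. Of 30 senescence and p53 target genes 2 were listed with siSRC2 and 1 with siSRC4, with TP53INP1 lower in both. Of 31 genes of cholesterol and fatty acid synthesis 2 were listed with each siRNA, ELOVL6 in both tables. The lists of interferon-stimulated genes, cell division, ER stress, JAK-STAT and PAK, WNT with BMP and TGF-beta, and small RNA machinery held no shared gene.

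The shared genes varied in transcript length and base composition, taken from the longest GENCODE v29 transcript. Median GC content was 40.1% for the 11 genes higher with siSRC2 and lower with siSRC4, 54.7% for the 7 of the reverse, 53.1% for the 54 higher with both and 45.5% for the 32 lower with both, against 46.7% for all genes in either siRNA table. Median transcript length was 5234 bases for the 11, 1979 for the 7, 4375 for the 54 and 2721 for the 32, against 3891 for all. The part of composition or length in the differences was not tested.

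Values of PD30 libraries, from WI-38 cells at 30 doublings with lipo3000 and DMSO and no NC label, are deposited for 57 of the shared genes. The fourth table sets cells with GW8510 at PD45 against NC, and 22 of the shared genes are in all 4 tables. The comparison of PD30 shares the NC libraries, so values are given side by side with no test. PCDH18 had 108.92, 112.96 and 110.16 at PD30, above the siSRC2, siSRC4 and NC libraries given above. HSD17B2 had 25.03, 30.23 and 29.87 at PD30, a range that overlapped siSRC2. ADAMTS19 had 2.28, 1.66 and 1.9 at PD30, below all siSRC4 libraries, and FOLR3 had 1.45, 0.79 and 1.32, below all siSRC2 libraries. FABP4 had 19.88, 23.61 and 25.57 at PD30, below all siSRC4 libraries. COL4A1 had 237.88, 203.91 and 239.57 at PD30, overlapping siSRC2. Of the 54 genes higher with both siRNAs 22 were listed higher and 6 lower at PD30, and of the 32 lower with both 1 was listed higher and 17 lower. Of the 11 genes higher with siSRC2 and lower with siSRC4, 4 were listed higher and 2 lower at PD30, and of the 7 of the reverse 0 higher and 5 lower. In the authors' deposited table, 15.3% of the 18575 genes tested for PD30 are listed (8.24% higher, 7.07% lower).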

How the data were processed

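RNA sequencing libraries of WI-38 cells were compared, 3 for each of siSRC2, siSRC4 and NC, with groups taken from sample titles and treatment labels. Tools in the submitters' processing notes, with no roles given, are edgeR, DESeq2, RSEM, StringTie, HISAT2 and CASAVA. The notes also list GRCm38, a mouse build, although the gene identifiers are human, so no coordinates were taken from the files. Per the file headers, the deposited expression signal is a normalized value per gene and library, of unstated unit. Per the file headers, the authors also deposited a fold ratio, its log2 and a p-value with its adjusted p-value for each comparison with NC. On inspection, each table holds only genes with an adjusted p under 0.05 and a change of at least 1.5-fold. The number of genes the authors tested was worked out from the ratio of adjusted to raw p-value in the first row, taken to hold the smallest p. Tables were matched to groups by their library columns, which are named siSRC2 in the table whose mean column reads siSRC, and siSRC4 in the table whose mean column reads siSRC2. No library column was left unmapped.

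Genes in both tables were tested on log2(signal + 1) with limma 3.58.1 in R 4.3.3, using a mean-variance trend, 9 libraries and the contrast siSRC2 minus siSRC4, for genes with a mean signal over the 9 libraries of at least 1. The scale understates differences of low genes. The script was tested on simulated data. Means, SD and figures used Python 3.11.15, pandas 2.3.3, numpy 2.4.6, scipy 1.17.1 and matplotlib 3.10.9. The rule for named genes took SRC, the 10 widest called differences in each direction and the 10 widest common changes within 1.5-fold, both at a group mean of at least 5, all genes on opposite sides of NC, all members of the gene lists, and all genes in the 4 tables. The shared genes, the gene lists and the tests were chosen with earlier results of these data known. Alternatives were other pseudocounts, filters and bounds, no trend, the siRNA libraries alone, signals of each siRNA group shifted by their median gap to the authors' fold changes, a replicate block and leaving out each library. Adjusting over same-side genes alone was added after seeing the data.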

Additional observations from a re-analysis of the deposited data

Results flagged for a closer look

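For 14 of the 18 genes on opposite sides, every siSRC2 library and every siSRC4 library lay beyond all NC libraries, in opposite directions. They are ADAMTS19, ENSG00000285901, SSX2IP, TRPA1, PCDH18, HSD17B2, LRRN3, PDGFD, FOLR3, SGPL1, KRTAP2-3, TRBV12-4, DDR1 and ADAMTSL1. All were called by limma, but being listed on opposite sides fixed that they differ, so that test lends the difference no support. Being listed for a change from NC also favours libraries apart from NC, so that separation lends none either. Both siRNA groups lay apart from NC for 44 of the 54 genes higher with both and 27 of the 32 lower with both.

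For 12 genes on the same side of NC the change from NC differed between siSRC2 and siSRC4 in the limma test of the difference itself, with adjusted p-values from 1.33e-05 for FABP4 to 0.0468 for ARL10. Adjusted over the 83 same-side genes alone, ARL10 (limma adjusted p = 0.0961), KRTAP1-5 (0.0752) and PSG1 (0.0572) were not called.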

How the results depend on the processing

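The direction of all 18 opposite-side and all 12 same-side differences was kept in each of the 16 alternatives that tested them. The 30 calls ranged from 23 to 32 when 1 library was left out, and the 12 same-side calls from 6 to 14. They were 9 at a mean signal of at least 5, and also 9 when adjusted over same-side genes alone, an alternative chosen after seeing the data. The 49 genes with an interval within 1.5-fold ranged from 41 to 52 without 1 library. They became 15 with a tighter bound of 0.32 on the log2 scale and 78 with a bound of 2-fold. At a pseudocount of 0.1, which narrows the differences of low genes less, 41 genes had an interval within 1.5-fold and 31 were undecided. The 22 undecided genes ranged from 22 to 36 without 1 library and were 10 at a mean signal of at least 5, where fewer genes were tested. Of the genes not called, 6 were called in some alternative. The SRC difference ran from -0.02 to 0.12 without 1 library, and the genes farther from NC with siSRC4 from 41 to 58.

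Samples with the same replicate number did not all deviate together (correlations of 0.44, -0.06 and 0.23 between siSRC2 and siSRC4), so the numbers were not taken to pair them. With the replicate block 30 genes were called, 13 of them on the same side, 55 had an interval within 1.5-fold and 18 were undecided. CRISPLD1 and ARL10 were then no longer called, and MGARP and CCNYL1 were. Read depth is unknown, so how far it limits the undecided genes cannot be given.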
